A study of Mus musculus with 1019 samples.

Results

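The Ly6 and Ms4a genes described here are 6 cell surface genes of mouse regulatory T cells (Tregs): Ly6a, Ly6c1 and Ly6e of the Ly6 family, and Ms4a4b, Ms4a4c and Ms4a6b of the Ms4a family. They are 6 of the 23725 genes in the deposited count table, and they were chosen by name with their levels in visceral adipose tissue (VAT) and spleen already known. Their differences between tissues are therefore a description, and no test was made of them. There are 3 libraries, and each is 1 sample: VAT library 2 with 32.4% of the 1019 cells, VAT library 3 with 30.8% and the spleen library with 36.8%.

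The cells came from male B6 mice aged 20 months and were sorted as live (DAPI-) TCRb+ CD4+ CD25+ cells. They were profiled by inDrops, a droplet method in which each mRNA caught by its poly(A) tail carries a unique molecular identifier (UMI), so that a count is a count of molecules. The series title also names FoxP3- conventional T cells, but each cell's own label gives only the sort on CD25. The labels do not name animals, so the number of mice behind each library is unknown. VAT was digested with enzymes (collagenase and dispase) and spleen was dissociated mechanically, so tissue and dissociation cannot be told apart. Labels of the spleen cells disagree among themselves: the source is spleen, the tissue field names both tissues, and the library numbers in the title and in the sample type differ.

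Ly6 proteins are small, cysteine-rich proteins that a lipid (GPI) anchor holds on the outer face of the plasma membrane, and several of them serve as markers of lymphocyte and stem cell states. Ms4a proteins cross the membrane several times, as CD20 (Ms4a1) of B cells does, and some of them are found in T cells. In mice, Ly6a, Ly6e and several Ms4a genes are known to respond to interferons. VAT Tregs are a tissue population known for the transcription factor PPARg, the interleukin 33 receptor (Il1rl1) and Klrg1.

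Ly6a and Ly6c1 were higher in both VAT libraries than in spleen, Ly6e was higher by less than 2-fold, and Ms4a4b and Ms4a6b were lower in both VAT libraries. Ms4a4c had too few UMIs for the size rule below. Levels are UMIs of the gene scaled to a common library total of 1000000 UMIs (CPM), over totals of 556099 UMIs in VAT library 2, 548770 in VAT library 3 and 573622 in spleen, so that 1 UMI is 1.80, 1.82 and 1.74 CPM. A gene counted as higher or lower when it differed at least 2-fold from spleen in the same direction in both VAT libraries and had 50 or more UMIs over the 3 libraries. Of the 6 members 5 had that many UMIs; 2 counted as higher, against 10.3% of the 4635 genes with 50 or more UMIs, and 2 as lower, against 4.4% of them. Because the members were picked for their levels, these shares are background beside the counts and nothing is read from them. Over all genes 70.1% of the calls were higher. Scaled to totals that omit ribosomal protein genes, 52.6% were, while the same 4 members were called. The share of calls that were higher also fell with the UMI minimum, to 62.04% at 20 UMIs and 43.4% at 1 UMI. That minimum is summed over 2 VAT libraries and 1 spleen library, so genes higher in VAT reach it more easily. The share therefore cannot tell whether genes lean toward VAT.

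**Figure D1:**
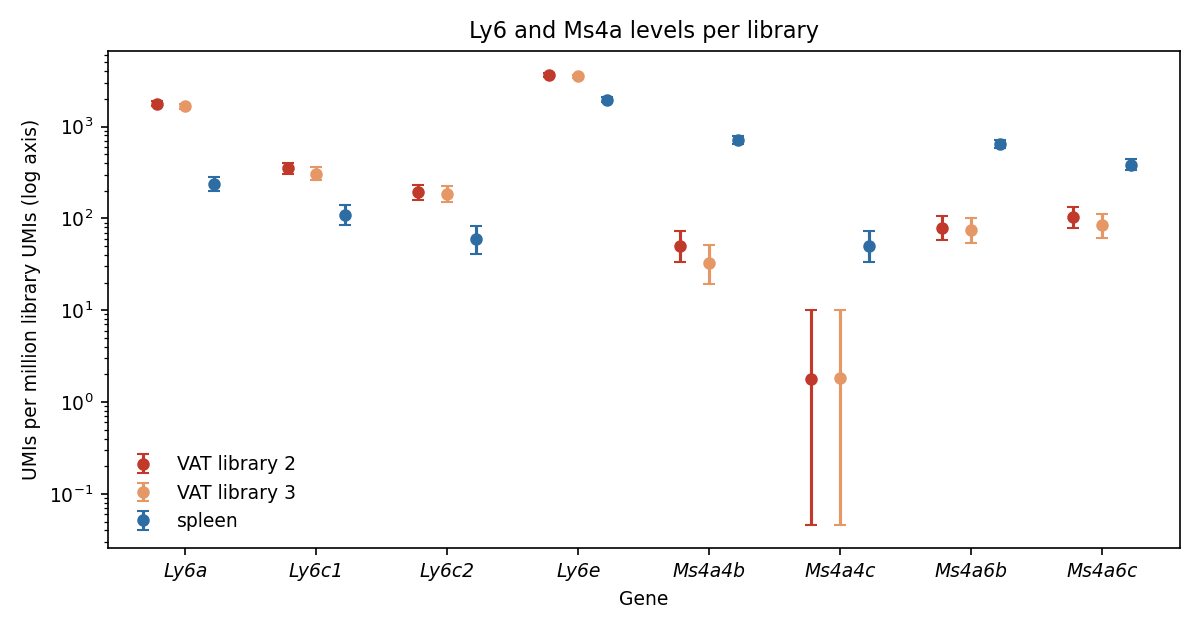
Level of each gene in CPM (log axis) in VAT library 2, VAT library 3 and spleen, for the 6 members and their close relatives Ly6c2 and Ms4a6c. Points are library values and bars are exact Poisson 95% intervals, which cover counting error only. The 4 Ly6 genes lie higher in both VAT libraries and the 4 Ms4a genes lie higher in spleen.

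Counts and levels were read with the following facts of the libraries in view. The median cell held 1565 UMIs in VAT library 2, 1611 in VAT library 3 and 1423 in spleen, so shares of cells with a UMI were taken after thinning every cell to 800 UMIs. The sort was checked on Treg genes: Foxp3 was at 472.9, 344.4 and 385.3 CPM in VAT library 2, VAT library 3 and spleen, and Il2ra, which encodes CD25, at 1104, 1011 and 453.3 CPM. Markers of other cells were scarce, at 12, 13 and 33 UMIs for 8 B cell genes, 8, 7 and 14 for 11 myeloid genes, 37, 36 and 33 for 7 CD8 and NK cell genes, 6, 5 and 31 for 8 endothelial genes, 0, 2 and 1 for 7 stromal genes, and 1, 0 and 0 for 4 adipocyte genes. Cd79a, Adgre1, Cd14, Cd8a, Ncr1, Cdh5, Tek, Dcn and Adipoq, which define those types, had no UMI in any library. The markers with most UMIs were Cd8b1, at 32, 30 and 28, Pecam1, at 1, 2 and 29, and Cd22, at 9, 12 and 20, and their part in the members' levels was not tested. The 5 erythroid genes, of which 4 had a row, summed to 1.80, 1.82 and 202.2 CPM. No cell type that should lack the members was in the sort, so their background from free RNA could not be read directly. Ms4a1 of B cells, which are abundant in spleen, had 0, 1 and 0 UMIs. VAT libraries 2 and 3 shared 2 cell barcodes, VAT library 3 and spleen shared 1, and VAT library 2 and spleen shared none.

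Both sets of members are neighbours in the genome (positions from GENCODE M21 on GRCm38, the mm10 build). Ly6e (chr15:74955051-74959905, plus strand), Ly6a (chr15:74994877-74998031, minus strand) and Ly6c1 (chr15:75044018-75048830, minus strand) lie within 93.8 kb. Ms4a4c (chr19:11404770-11427246), Ms4a4b (chr19:11443553-11467055) and Ms4a6b (chr19:11516512-11531256), all on the plus strand, lie within 126.5 kb. In RefSeq promoters of GRCm38.p6, 4 of the 6 members had an entry. The 250 bases before the RefSeq start are shown for members that moved together with a close relative. The first pair is Ly6c1 (chr15:75048838-75049087, minus strand, the first of its 2 listed starts) and its neighbour Ly6c2 (chr15:75111972-75112221, minus strand), where capitals mark the stretch that aligned between them, at 73.6% identity over the aligned columns:
Ly6c1: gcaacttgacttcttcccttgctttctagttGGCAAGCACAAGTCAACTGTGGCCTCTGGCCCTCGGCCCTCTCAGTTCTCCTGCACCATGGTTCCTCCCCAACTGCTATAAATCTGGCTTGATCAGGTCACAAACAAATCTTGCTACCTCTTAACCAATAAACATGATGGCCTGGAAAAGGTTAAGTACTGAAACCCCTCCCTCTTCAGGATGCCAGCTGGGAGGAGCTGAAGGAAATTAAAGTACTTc
Ly6c2: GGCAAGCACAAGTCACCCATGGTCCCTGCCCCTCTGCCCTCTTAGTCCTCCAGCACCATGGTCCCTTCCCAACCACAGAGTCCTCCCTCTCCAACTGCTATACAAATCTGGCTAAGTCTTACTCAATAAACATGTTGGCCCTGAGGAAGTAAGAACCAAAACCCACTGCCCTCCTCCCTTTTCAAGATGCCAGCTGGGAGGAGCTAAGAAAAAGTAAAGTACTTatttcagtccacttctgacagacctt

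Ly6a encodes Sca-1, the surface marker of mouse blood stem cells that is also found on activated and tissue T cells. It was at 1775 CPM in VAT library 2 (987 UMIs), 1660 CPM in VAT library 3 (911 UMIs) and 237.1 CPM in spleen. Both VAT libraries were high, with a ratio of VAT library 3 to 2 of 0.935 (0.854 to 1.02), and spleen was low. The ratio to spleen was 7.49 (95% interval 6.25 to 9.02) for VAT library 2 and 7.002 (5.84 to 8.45) for VAT library 3. Intervals throughout are exact but take in no error beyond counting, and since UMIs of a gene came in clumps within cells they are narrower than the true uncertainty.

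Not every VAT cell held Ly6a. At equal depth 53.9% of cells in VAT library 2 had a Ly6a UMI (48.4 to 59.4%), 52.9% in VAT library 3 (47.2 to 58.5%) and 11.5% in spleen (8.42 to 15.1%). Without thinning the shares were 65.5%, 68.2% and 15.5%. If Ly6a UMIs had fallen on cells in proportion to each cell's depth, 93.02%, 92.47% and 29.97% of cells would have held one, so the gene was unevenly spread in all 3 libraries. In VAT library 2, VAT library 3 and spleen, 31.2%, 30.3% and 2.67% of cells held 4 or more UMIs, and the highest cells had 31, 32 and 9 UMIs. Cells with none made up 34.5%, 31.8% and 84.5%.

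Ly6c1 encodes one of 2 near-identical Ly-6C antigens, a surface marker used to sort monocytes and memory T cells, and Ly6c2 encodes the other. Ly6c1 was at 352.5 CPM in VAT library 2, 307.96 CPM in VAT library 3 and 109.8 CPM in spleen, the last from 63 UMIs. Its ratio to spleen was 3.21 (2.41 to 4.33) for VAT library 2 and 2.80 (2.09 to 3.81) for VAT library 3, and the VAT libraries did not differ beyond counting error (ratio of VAT library 3 to 2 of 0.874, 0.707 to 1.08). At equal depth 21.2%, 18.5% and 6.13% of cells in VAT library 2, VAT library 3 and spleen held it, and 32.1%, 28.98% and 10.1% without thinning. Ly6c2 was at 192.4, 185.9 and 59.3 CPM, with ratios of 3.25 (2.19 to 4.93) and 3.14 (2.11 to 4.77). Reads of this pair may be split between the 2 symbols: over the last 400 bases of the annotated coding transcripts, up to 46.2% of the 50-base words of a Ly6c1 transcript also occur in Ly6c2, and 25.1 to 41.6% of those of Ly6c2 occur in Ly6c1. With the counts of both summed, the call was the same.

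Ly6e encodes a GPI-anchored protein that acts on the entry of several viruses in mouse and human cells. It had 2020 UMIs in VAT library 2 (3632 CPM), 1930 in VAT library 3 (3517 CPM) and 1129 in spleen (1968 CPM). VAT was the higher side again, but by ratios of 1.85 (1.72 to 1.99) and 1.79 (1.66 to 1.93), so Ly6e did not meet the 2-fold rule. Thinned counts put VAT library 2 past 2-fold and left VAT library 3 under it, with log2 ratios of 1.03 and 0.98. A UMI of Ly6e was present at equal depth in 89.7% of VAT library 2 cells, 85.99% of VAT library 3 cells and 61.6% of spleen cells (95.8%, 95.2% and 76% unthinned). Cells with 4 or more UMIs made up 70.6%, 66.2% and 36.8%. Most spleen cells thus held Ly6e as well.

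**Figure D2:**
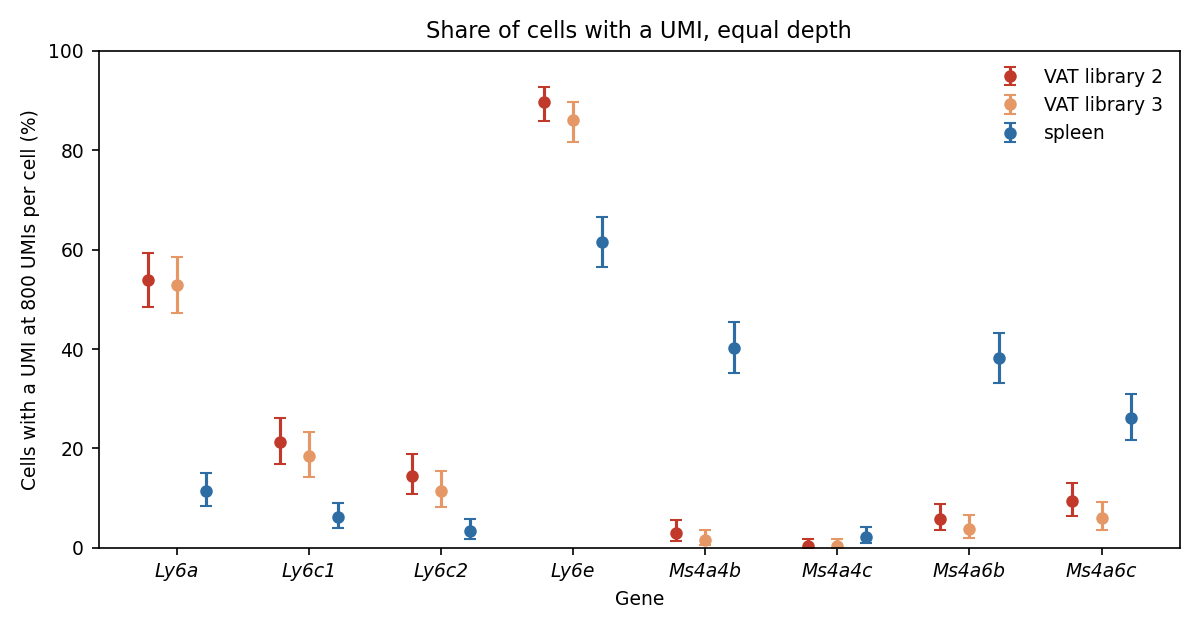
Share of cells with at least 1 UMI of each gene (%, y axis) after thinning every cell to 800 UMIs, in VAT library 2, VAT library 3 and spleen; bars are exact binomial 95% intervals. Ly6a is present in 53.9% and 52.9% of VAT cells and 11.5% of spleen cells, and Ms4a4b in 3.03% and 1.59% of VAT cells and 40.3% of spleen cells.

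The wider Ly6 list held 38 genes, of which 33 had a row, 13 had a UMI and 5 had 50 or more. Of those 5, 4 were higher in both VAT libraries and none was lower, beside 10.3% and 4.4% of all genes, with median log2 ratios of 1.68 and 1.63, beside 0.04 and -0.02 over all 4635 genes. The fourth was Ly6f, with 22, 32 and 4 UMIs in VAT library 2, VAT library 3 and spleen. Members, chosen for their levels, make up 3 of the 5, so the list adds Ly6c2 and Ly6f alone. Ly6k had 0, 0 and 10 UMIs and was too sparse for the rule.

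The windows of the Ms4a members are shown because Ms4a4b and Ms4a4c both had lower levels in the VAT libraries and share sequence: capitals in both mark an aligned stretch of 89.1% identity next to the start. In Ms4a6b capitals mark the single match to GAAANNGAA, the core of the interferon-stimulated response element. The windows of Ms4a4c and Ms4a6b lie inside the GENCODE gene spans given above. Their RefSeq starts are thus downstream of the GENCODE gene starts, and these windows are not the sequence before the whole gene. The windows are chr19:11443308-11443557 for Ms4a4b, chr19:11407411-11407660 for Ms4a4c and chr19:11518309-11518558 for Ms4a6b, all on the plus strand:
Ms4a4b: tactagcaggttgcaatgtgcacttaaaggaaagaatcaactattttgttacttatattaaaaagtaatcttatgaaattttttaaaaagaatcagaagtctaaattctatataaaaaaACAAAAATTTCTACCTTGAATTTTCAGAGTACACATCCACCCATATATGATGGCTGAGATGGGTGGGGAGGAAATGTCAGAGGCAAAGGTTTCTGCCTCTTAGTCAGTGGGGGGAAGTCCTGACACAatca
Ms4a4c: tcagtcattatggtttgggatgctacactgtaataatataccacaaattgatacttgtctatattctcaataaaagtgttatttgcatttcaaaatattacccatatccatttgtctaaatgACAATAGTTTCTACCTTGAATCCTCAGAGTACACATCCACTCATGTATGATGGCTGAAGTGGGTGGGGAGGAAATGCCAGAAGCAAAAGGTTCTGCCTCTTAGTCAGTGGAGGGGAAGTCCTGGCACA
Ms4a6b: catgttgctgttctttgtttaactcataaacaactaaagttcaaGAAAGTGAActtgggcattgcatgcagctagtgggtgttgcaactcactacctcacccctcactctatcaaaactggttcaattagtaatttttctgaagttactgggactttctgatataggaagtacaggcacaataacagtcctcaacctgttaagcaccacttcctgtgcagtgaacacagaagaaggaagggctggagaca

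Searched on both strands, GAAANNGAA was in 7.13% of the 32851 RefSeq windows of this length. TTCNNNGAA (a gamma-activated site) was in 7.02% and TGANTCA (an AP-1 site) in 6.75%, and neither was found in the windows printed here. A match of these letters is a description and not a binding site. The longest local alignment of Ms4a6b with Ms4a4b covered 17 columns.

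Ms4a4b encodes a membrane protein of mouse T cells that associates with the costimulatory receptor GITR. It was at 50.4 CPM in VAT library 2 (28 UMIs), 32.8 CPM in VAT library 3 (18 UMIs) and 711.3 CPM in spleen. The spleen library stood far above both VAT libraries, and Ms4a4b was 14.1-fold lower (9.63 to 21.5) in VAT library 2 and 21.7-fold lower (13.5 to 36.96) in VAT library 3. The VAT libraries did not differ beyond counting error, with a ratio of VAT library 3 to 2 of 0.651 (0.339 to 1.22). At equal depth 3.03% of VAT library 2 cells, 1.59% of VAT library 3 cells and 40.3% of spleen cells held a UMI (4.24%, 3.50% and 52.5% unthinned). The VAT UMIs came from 14 and 11 cells, and 1 cell held 7 of the 28 in VAT library 2. In spleen the highest cell had 8.

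Ms4a6b encodes a related protein of T cells. It was at 79.1 CPM in VAT library 2 (44 UMIs), 74.7 CPM in VAT library 3 (41 UMIs) and 650.3 CPM in spleen. It was 8.22-fold lower (6.002 to 11.5) in VAT library 2 and 8.70-fold lower (6.29 to 12.3) in VAT library 3, while the VAT libraries had a ratio of 0.944 (0.602 to 1.48). At equal depth 5.76%, 3.82% and 38.1% of cells in VAT library 2, VAT library 3 and spleen held it, and 9.09%, 8.92% and 53.1% without thinning. The relative Ms4a6c was at 102.5, 83.8 and 385.3 CPM, and was 3.76-fold lower (2.80 to 5.12) and 4.60-fold lower (3.33 to 6.46). Of the 50-base words in the last 400 bases of Ms4a6c, 13.4% also occur in Ms4a6b, so some reads of this pair could be split. Summed, the pair had a log2 ratio of -2.51 in VAT library 2, against -3.02 for Ms4a6b alone.

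Ms4a4c, a close relative of Ms4a4b, was near the limit of these libraries. It had 1 UMI in VAT library 2, 1 in VAT library 3 and 29 in spleen, the last spread over 16 cells, with 31 UMIs in all, under the 50 set for the rule. The fall was 28.1-fold in VAT library 2, with an interval of 4.66 to 1148, and 27.7-fold in VAT library 3, with an interval of 4.60 to 1133, so the direction is given by the counts and the size is not. A count of 0 would have allowed up to 5.39 CPM in VAT library 2, 5.47 in VAT library 3 and 5.23 in spleen. Up to 19.9% of the 50-base words of a Ms4a4c transcript's last 400 bases occur in Ms4a4b.

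The Ms4a list held 20 genes with 18 rows, of which 10 had a UMI and 5 had 50 or more, and it did not move one way, with 2 higher and 3 lower beside 10.3% and 4.4% of all genes. Ms4a4b, Ms4a6b and Ms4a6c were lower in both VAT libraries. Ms4a4b and Ms4a6b are members, chosen for their levels, so the list adds Ms4a6c, Tmem176a and Tmem176b alone. Tmem176a, at 136.7, 134.8 and 12.2 CPM, and Tmem176b, at 269.7, 275.2 and 47.1 CPM, which belong to the same family by sequence, were higher, by 11.2- and 11.1-fold and by 5.73- and 5.85-fold. Those genes overlap at their 5' ends on opposite strands of chromosome 6 (Tmem176a at 48840919-48847071, plus strand, and Tmem176b at 48833818-48841496, minus strand). The libraries tag 3' ends, and sharing of reads was not tested. The 5 genes had median log2 ratios of -1.90 in VAT library 2 and -2.19 in VAT library 3.

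**Figure D3:**
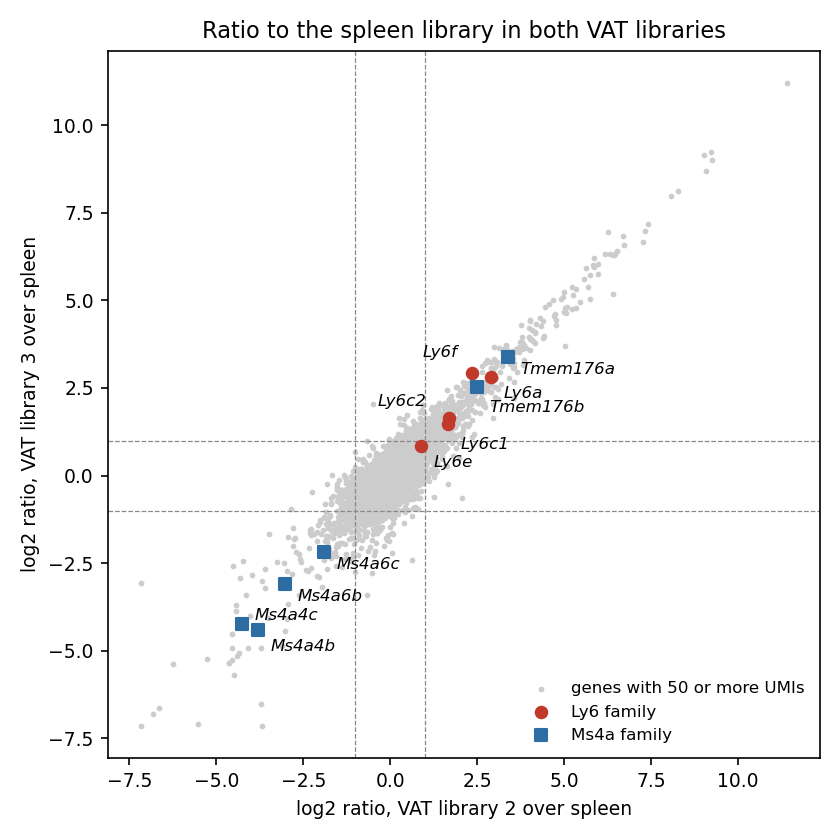
log2 ratio to spleen in VAT library 2 (x axis) and VAT library 3 (y axis) for the 4635 genes with 50 or more UMIs (grey), with Ly6 list genes as circles, Ms4a list genes as squares and dashed lines at 2-fold; Ms4a4c, with 31 UMIs, is added. Both axes share the spleen library, so points follow the diagonal by construction. Ly6e lies just inside the 2-fold lines, and Tmem176a and Tmem176b lie with the Ly6 genes.

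Between the VAT libraries themselves 0 of the 5 members with 50 or more UMIs were 2-fold apart, against 4.34% of all such genes. This comparison does not involve the spleen library. The ratios of VAT library 3 to VAT library 2 ran from 0.651 for Ms4a4b to 0.968 for Ly6e among those 5.

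Counted per cell, the families divided the tissues as follows. At equal depth 94.8% of VAT library 2 cells, 92.4% of VAT library 3 cells and 67.2% of spleen cells held a UMI of at least 1 Ly6 member. At least 1 Ms4a member was found in 7.58%, 5.41% and 58.9% of cells. Both families were found in the same cell in 6.67%, 5.41% and 41.3%. Spleen cells with a Ly6 UMI held an Ms4a UMI in 61.5% of cases, against 53.7% of the cells without one, so the families did not divide spleen cells into separate sets.

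**Figure D4:**
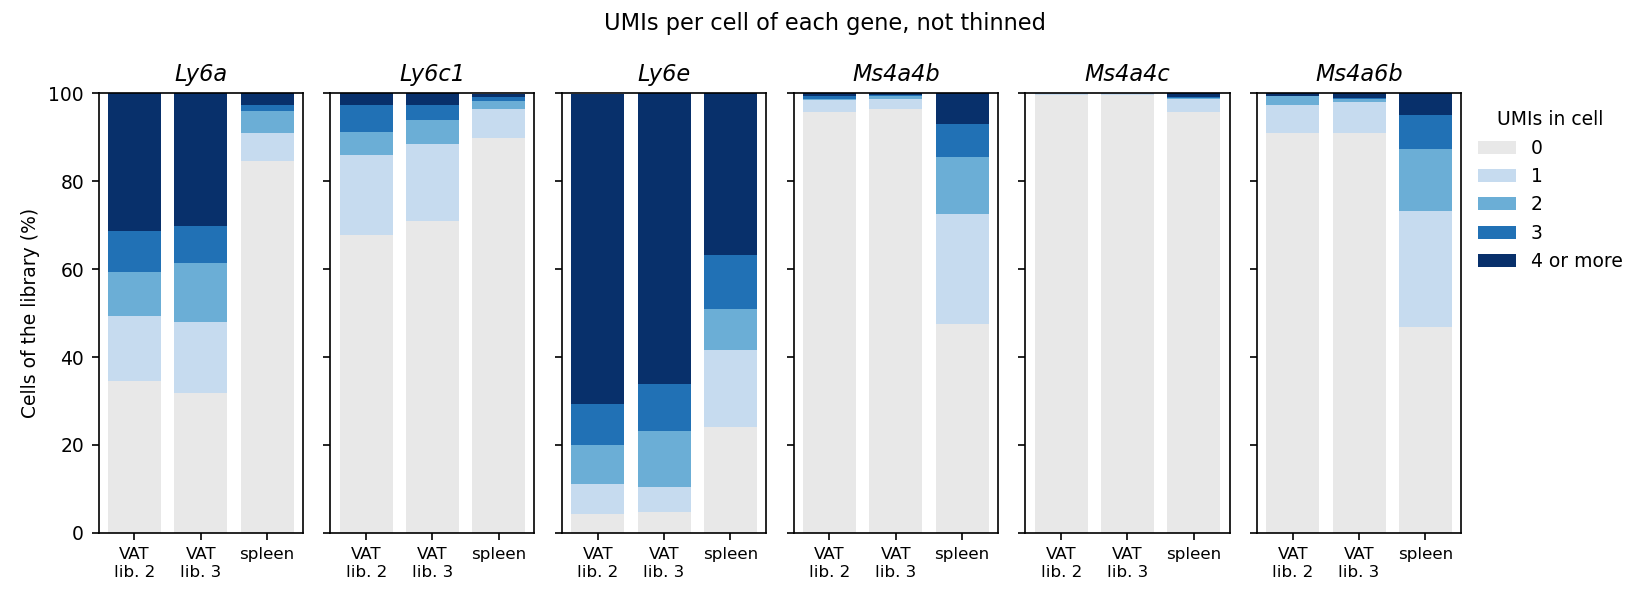
Share of cells (%, y axis) by the number of UMIs they hold of each member, not thinned, in VAT library 2, VAT library 3 and spleen. For Ly6a, 31.2% and 30.3% of VAT cells and 2.67% of spleen cells hold 4 or more UMIs; for Ms4a4b, 95.8% and 96.5% of VAT cells and 47.5% of spleen cells hold none.

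Co-detection within a library is given as a description over cells that share handling and depth. Over the 15 pairs of members, Spearman's rho of thinned counts ran from -0.15 to 0.31 in VAT library 2, -0.06 to 0.18 in VAT library 3 and -0.07 to 0.17 in spleen, with medians of -0.03, 0.01 and 0.03, which in counts this sparse is no finding. Ly6c1 and Ly6c2 stood out at 0.52, 0.54 and 0.51, beside their shared 3' sequence. In VAT library 2, 33 cells held both, against 10.2 if the genes had fallen independently. Ms4a6b and Ms4a6c had rho of 0.28, 0.16 and 0.39. In spleen 48.3% of cells with Ms4a6b held Ms4a6c, against 12.5% of cells without it. Ly6a and Ly6c1 had weak positive values of 0.15, 0.18 and 0.12: Ly6c1 was found in 25.8% of VAT library 2 cells with Ly6a and 15.8% of those without, in 24.7% and 11.5% in VAT library 3, and in 13.95% and 5.12% in spleen. Up to 13.6% of the 50-base words of a Ly6a transcript's last 400 bases occur in Ly6c1.

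The genes most like each member were ranked by rho over the cells of a library, among 1440 or 1441 genes in VAT and 1661 or 1662 in spleen. Outside the families the values were weak, and those in VAT are means of both libraries. For Ly6a they were Ly6c1, Ly6c2 and Serinc3 (mean rho 0.14) in VAT and Mien1, Calr and Nme1 in spleen (0.23, 0.19 and 0.19). For Ly6c1 they were Ly6c2, Ly6a and Hspa1a (0.14) in VAT and Rab10 and Nsg2 in spleen (0.20 and 0.18). For Ly6e they were Thy1, H2-Q5 and S100a11 in VAT (all 0.12) and Lsm4, Irf1 and Tmc6 in spleen (0.18, 0.16 and 0.15). For Ms4a4b they were Anapc5 and Sf3b6 in VAT (0.17 and 0.13, over 10 and 5 thinned cells with a UMI) and Skap1, Samhd1 and Ms4a6b in spleen (0.19, 0.18 and 0.17). For Ms4a6b they were Bola2, Ltb and Apbb1ip in VAT (0.16, 0.15 and 0.15) and Ms4a6c, Ms4a4b and Rap1a in spleen (0.39, 0.17 and 0.16). The VAT libraries disagreed for Ms4a6b, which 19 and 12 thinned cells held: Bola2 had rho of 0.04 and 0.29, Ltb of 0.21 and 0.10, and Apbb1ip of 0.05 and 0.25 in VAT libraries 2 and 3. Ms4a4c had 1 UMI in each VAT library, so its ranking there (Add1, Tcea1 and Nufip2) rests on 1 cell each; in spleen it was nearest Fam169b, Dgka and Sesn1 (0.23, 0.23 and 0.20).

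Klrg1, an inhibitory receptor of effector lymphocytes, had a UMI in 83.9% of cells in VAT library 2, 89.2% in VAT library 3 and 3.2% in spleen. In VAT library 2, Ms4a4b was at 16.9 CPM in cells with a Klrg1 UMI (8 UMIs) and at 244.4 CPM in the 53 cells without (20 UMIs), a 14.5-fold difference (6.11 to 38.03). Those 20 UMIs came from 7 cells and 1 of them held 7, so the value rests on few cells. VAT library 3 did not show it beyond counting error, with 30.1 CPM (15 UMIs) in cells with Klrg1 and 59.3 CPM (3 UMIs) in cells without, a ratio of 0.51 (0.14 to 2.74). Ms4a6b was at 65.4 and 158.9 CPM in VAT library 2, a ratio of 0.41 (0.21 to 0.86), and at 70.3 and 118.6 CPM in VAT library 3, a ratio of 0.59 (0.25 to 1.72). Spleen cells with a Klrg1 UMI numbered 12, with 2 UMIs each of Ms4a4b and Ms4a6b (105.1 CPM), against 732 and 669 CPM in the rest. Of the Ly6 members, Ly6e was lower in these 12 cells, at 998.2 CPM against 2001 CPM in the rest (ratio 0.50, 0.30 to 0.78). Ly6a and Ly6c1 did not differ beyond counting error. Ly6a was at 105.1 and 241.6 CPM (ratio 0.43, 0.05 to 1.60), the first from 2 UMIs in 1 cell. Ly6c1 had 0 UMIs in the 12 cells, which allows up to 193.8 CPM, against 113.6 CPM in the rest.

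Ly6a was higher in cells with a Klrg1 UMI in VAT library 2, at 1849 and 1344 CPM with and without it (ratio 1.38, 1.13 to 1.69). VAT library 3 did not show this beyond counting error, at 1670 and 1562 CPM (1.07, 0.85 to 1.36). In VAT cells without a Klrg1 UMI, Ly6a was thus above the 237.1 CPM of the spleen library, while Ms4a4b, at 244.4 and 59.3 CPM, was below the 711.3 CPM there. Ly6e had ratios of 1.30 (1.14 to 1.5004) and 0.92 (0.80 to 1.08), and Ly6c1 of 0.99 (0.67 to 1.53) and 1.33 (0.74 to 2.63). Cells with a Klrg1 UMI were deeper, at a median of 1583 UMIs against 1448 without in VAT library 2 and 1628.5 against 1371.5 in VAT library 3. A cell without a Klrg1 UMI may still express it at this depth.

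**Figure D5:**
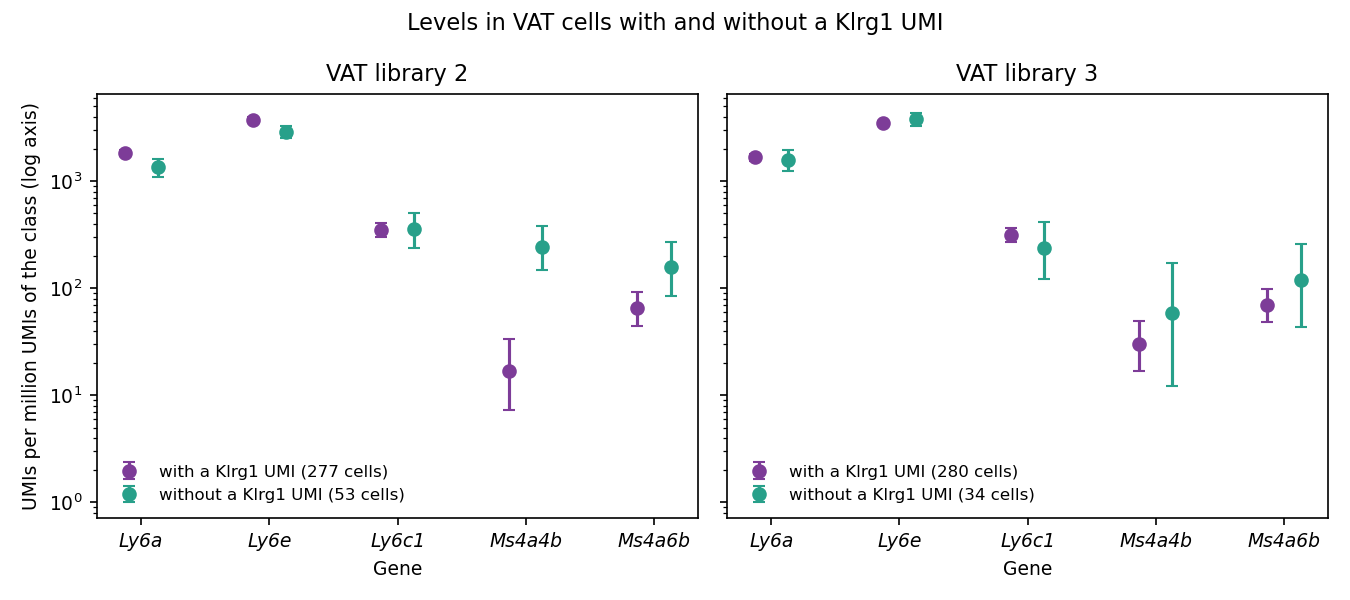
Level of each gene in CPM of the class (log axis) in cells with and without a Klrg1 UMI, in VAT library 2 (left) and VAT library 3 (right); bars are exact Poisson 95% intervals. Ms4a4b is at 16.9 CPM with and 244.4 CPM without Klrg1 in VAT library 2, and its intervals overlap in VAT library 3.

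By the interleukin 33 receptor gene Il1rl1, the same 28 Ms4a4b UMIs of VAT library 2 again split into 8 and 20. Ms4a4b was at 20.7 CPM in 220 cells with an Il1rl1 UMI and 117.8 CPM in 110 cells without (ratio 0.18, 0.07 to 0.42). Those 20 UMIs came from 10 cells and 1 of them held 7, so this value too rests on few cells. In VAT library 3 the split was again not beyond counting error, at 28.7 and 42.3 CPM (0.68, 0.24 to 2.06). Ly6e was lower in cells with Il1rl1 in VAT library 3 (ratio 0.80, 0.73 to 0.88) and not in VAT library 2 (1.07, 0.97 to 1.18). By Foxp3, the transcription factor that defines Tregs, spleen cells with and without a UMI did not differ beyond counting error in Ms4a4b (710.7 and 711.6 CPM, ratio 0.999, 0.809 to 1.23) or Ms4a6b (651.4 and 649.6 CPM, with an interval of 0.805 to 1.25). Ly6a was at 2060 CPM with and 1579 CPM without Foxp3 in VAT library 2 (1.30, 1.15 to 1.48), with ratios of 1.09 (0.95 to 1.25) in VAT library 3 and 0.85 (0.58 to 1.23) in spleen. Ms4a6b was at 44.2 CPM with and 103.1 CPM without Foxp3 in VAT library 2 (0.43, 0.19 to 0.89), and at 104.2 and 60.1 CPM in VAT library 3 (1.73, 0.89 to 3.36), so the VAT libraries ran in opposite directions. Restricted to cells with a Foxp3 UMI, the log2 ratios to spleen in VAT libraries 2 and 3 were 3.26 and 3.03 for Ly6a, -4.63 and -4.56 for Ms4a4b, and -3.82 and -2.61 for Ms4a6b.

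Values of the interferon response list stand beside those of the members as a description. Of its 43 genes 28 had 50 or more UMIs, of which 0 counted as higher and 12 as lower in both VAT libraries, among them Irf9 and Gbp2, beside 10.3% and 4.4% of all genes. Its median log2 ratios of -1.03 and -1.04 have the sign of those of the Ms4a members and not of the Ly6 members, and its part in the levels of either was not tested. Its summed level was 2318, 2371 and 4946 CPM in VAT library 2, VAT library 3 and spleen. Within a library the members' thinned counts had rho between -0.04 and 0.13 with the list's sum. The Ms4a members were sparse in VAT, so little can be read from their values there. Ly6e was in 89.7%, 85.99% and 61.6% of thinned cells, and its rho was 0.07, -0.01 and 0.04. These values are a description and were not tested. The immediate early list moved the other way, with all 16 of its genes with 50 or more UMIs higher in both VAT libraries and sums of 31435, 28905 and 1827 CPM; its part in the members' levels was not tested, and the calls were the same with those genes out of the totals.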

How the data were processed

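Single-cell 3' tag libraries were made by inDrops, with capture by oligo dT, linear amplification and sequencing on a NextSeq500, per the labels' protocols. TopHat2, SAMtools and the mouse build mm10 are named in the submitters' processing notes, without versions. How cells were filtered and which annotation was counted is not given in the sources used here. Raw UMI counts, with genes in rows and cells in columns, were deposited by the authors. A second deposited table that repeats label values per cell was not used. Every sample is 1 cell; groups came from source names and library numbers in titles. No doublet caller was run.

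UMIs were summed per library and scaled to CPM (Python 3.11.15, numpy 2.4.6, pandas 2.3.3, scipy 1.17.1). log2 ratios add 0.5 to each count; printed folds do not. Ratios have exact conditional binomial, shares Clopper-Pearson and levels Poisson 95% intervals. The size rule was tested on simulated data. Promoters were aligned locally with Biopython 1.88 (match 2, mismatch -3, gap opening -5, gap extension -2). With the spleen as 1 library and no animals named, no p-value was computed. Shares, co-detection and likeness used 1 draw of 800 UMIs per cell, which every cell reached; a floor of 3 counts stands for a count of 0. Named were the 6 members, the other genes of both family lists with 20 or more UMIs, defining markers of other cells, and for each member the 3 genes with the highest rho in VAT and in spleen; ribosomal protein and mitochondrial genes and genes under 50 UMIs in a library compared were left out. Some genes that this rule would name are not reported here. Ly6k, Ms4a1 and members of the interferon list were named after their values were seen. The members and all lists were chosen with earlier results of these data known. Alternatives were other totals, depths, cell sets, fold sizes and count minimums. Summing pairs of close relatives (Ly6c1 with Ly6c2, Ms4a4b with Ms4a4c, Ms4a6b with Ms4a6c) was added after seeing the data.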

Additional observations from a re-analysis of the deposited data

How the results depend on the processing

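No paired analysis was possible because no label ties a VAT library to the spleen library or names a mouse. The same 2 members were called higher (Ly6a and Ly6c1) and the same 2 lower (Ms4a4b and Ms4a6b) under every other total and depth. This also held in every set of cells tried. Leaving out VAT library 2 or VAT library 3 gave 2 and 2 each time. A call needs both VAT libraries, so leaving 1 out could not remove a called member. A 3-fold size rule left 1 higher, Ly6a, because VAT library 3 was at 2.80-fold for Ly6c1. A 1.5-fold rule gave 3 higher, adding Ly6e, and a minimum of 20 UMIs or 1 UMI gave 3 lower, adding Ms4a4c. Summing pairs of close relatives also gave 3 lower. There Ms4a4b and Ms4a4c held the same summed counts, so this call says nothing of Ms4a4c alone. No log2 ratio of a member changed sign in 11 alternatives each, 1 of which left out the other VAT library and could not move the ratio. Ly6a and Ly6e are in no pair of close relatives, so summing pairs could not move their ratios either. Of the log2 ratios under these alternatives, 10 moved beyond their counting interval. Of 54 shares 26 moved. Leaving ribosomal protein genes out of the totals shifted the median of all genes to -0.20 and -0.23 and Ly6e to log2 ratios of 0.64 and 0.63. Over all genes 8.82% were lower without VAT library 2 and 7.40% without VAT library 3, 7.38% without ribosomal protein genes in the totals, 12.8% at 1.5-fold, 1.77% at 3-fold, 6.45% and 14.4% with a minimum of 20 UMIs and 1 UMI, against 4.4% as reported; 17.9% were higher at 1.5-fold and 5.70% at 3-fold, against 10.3%. Without VAT library 2, 12.8% of all genes were higher, and without VAT library 3 13.5% were. Without ribosomal protein genes in the totals, 8.18% were higher. In cells with a Foxp3 UMI alone, 12.2% of all genes were higher and 6.52% lower. Cells with a marker UMI of other types were 50, 53 and 92 in VAT library 2, VAT library 3 and spleen. With those cells left out, 11.2% of all genes were higher and 5.01% lower. Depth limits Ms4a4c, with 1 UMI in each VAT library, and Ms4a4b, with 28 and 18 UMIs there.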
